A study of Mus musculus with 2 samples.

Results

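Parietal endoderm is the cell layer that lines the yolk sac of the mouse embryo on the outside and lays down a thick basement membrane facing maternal blood. It makes, along with laminin and type IV collagen, a set of proteins better known from blood clotting and vessel walls, and 9 genes linked to this cell type or to the clotting system were examined here. They are *Srgn*, *F3*, *Tfpi*, *Thbd*, *Procr*, *Plat*, *Plau*, *Plaur* and *Pth1r*. Members were found as all probe sets whose single gene symbol in the annotation of the array is one of these names, which gave 14 of 45101 probe sets and 9 of 18194 named genes. No member was without a probe set, and 6 of the 9 had 1.

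The comparison holds 1 array of *G9a*-KO ESCs and 1 array of WT ESCs. The *G9a*-KO cells are TT2 ESCs in which 1 *G9a* allele is a mutant allele and the other had been floxed and was then recombined by Cre, which removes exons for the catalytic SET domain core. The WT cells are the TT2 line itself, whose F1 embryo of origin had C57BL/6 and CBA as maternal and paternal strains. The labels give the same text for both samples, with 800 nM 4-hydroxytamoxifen for 48 h, a further 48 h without it, and serum replacement with little calf serum and LIF. The methods of the study instead place *G9a*-KO ESCs in serum with LIF on inactivated embryonic fibroblasts, name a line without *G9a*, and say nothing of feeders for TT2. Whether medium, feeders and drug differed between the cultures therefore cannot be told apart from the genotype. Levels are log2 values with the 75th percentile of that array set to 0, and each difference is *G9a*-KO minus WT. With 1 array per group no difference can be set against a replicate spread, no test was made, and precision is limited by there being 2 arrays in all. Control RNA added to the hybridization mix gave differences of -0.16 to 0.21 over its 18 probe sets (SD 0.11). The probe set of *Ehmt2*, which encodes G9a, with the higher signal was at 0.51 in *G9a*-KO and 2.05 in WT, and its other probe set was at -2.07 in *G9a*-KO and -2.27 in WT, near the medians of all probe sets (-2.13 in *G9a*-KO and -2.24 in WT). Since the sources used here do not place them relative to the deleted exons, they do not check the label.

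As background, clotting starts when tissue factor, the product of *F3*, binds factor VII on a cell surface, and TFPI, the product of *Tfpi*, blocks that step. Thrombomodulin (*Thbd*) and the endothelial protein C receptor (*Procr*) both take part in the activation of the anticoagulant protein C by thrombin. The tissue-type (*Plat*) and urokinase-type (*Plau*) activators cut plasminogen to plasmin, which dissolves fibrin and matrix, and *Plaur* encodes the receptor that holds urokinase at the membrane. *Srgn* encodes serglycin, a small proteoglycan core protein that was isolated from a rat yolk sac tumour and is abundant in granules of blood cells, and *Pth1r* encodes the receptor for parathyroid hormone and its related protein, which promotes parietal endoderm formation in mouse teratocarcinoma cells.

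In *G9a*-KO ESCs, 5 of the 9 genes were higher past 1.3-fold, the threshold that the study used for this pair of arrays, and the same 5 were higher past 2-fold. These were *Srgn* (55.4-fold), *F3* (5.82-fold), *Pth1r* (4.67-fold), *Tfpi* (3.31-fold) and *Plaur* (2.59-fold). *Procr* was 1.69-fold lower, and *Thbd* (0.27), *Plat* (0.16) and *Plau* (0.02) differed by less than 1.3-fold on the log2 scale. Each gene is represented by its brightest probe set, judged on the mean of the arrays. Of all 18194 genes, 17.4% were higher and 17.2% lower past 1.3-fold by this rule, and 4.61% were higher and 3.76% lower past 2-fold. Higher genes made up 50.4% of all calls at 1.3-fold, or 36.9% when each array was centred on its median instead, a change that lowers every difference by 0.10. The median difference of the 9 genes was 1.37, beside 0.04 for all genes. By the rule of the study, in which any probe set past the threshold is enough, the members again gave 5 higher and 1 lower, beside 24.6% higher and 22% lower of all genes.

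**Figure D1:**
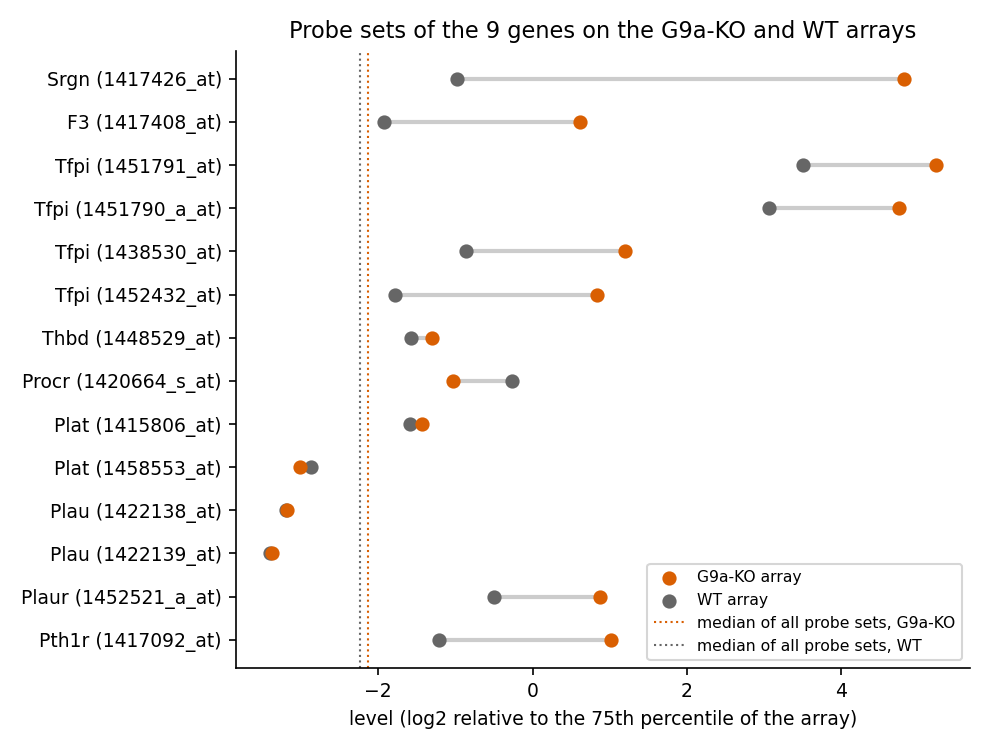
Level of each of the 14 probe sets of the 9 genes (log2, with the 75th percentile of each array at 0, horizontal axis) on the G9a-KO array (orange) and the WT array (grey), 1 point per array, with dotted lines at the median of all probe sets. *Srgn* lies at 4.81 in G9a-KO and -0.99 in WT, all 4 probe sets of *Tfpi* lie further right in G9a-KO, and both probe sets of *Plau* lie left of the dotted lines.

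*Srgn* differed most of the 9 genes. Its probe set (1417426_at) was at 4.81 on the *G9a*-KO array and at -0.99 on the WT array, a difference of 5.79. In WT it lay above 66.0% of all probe sets, and in *G9a*-KO above 98.7%, so the WT signal was within the measured range and not among the dimmest. Among all genes its difference ranked 3 of 18194 from the top. When the genes were put in 20 groups by their mean level, 0 of the other 909 genes in its group had a higher difference, and the robust SD of the differences in that group was 0.51.

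The initiator of clotting and its inhibitor were both higher. *F3* was at 0.62 in *G9a*-KO and -1.92 in WT, a difference of 2.54, by its single probe set (1417408_at). The WT value stood 0.31 above the median of all probe sets, so the fold is less exact than for brighter genes. *Tfpi* has 4 probe sets, and by the brightest, 1451791_at, it was at 5.23 in *G9a*-KO and 3.50 in WT. A second bright probe set, 1451790_a_at, gave 4.75 in *G9a*-KO and 3.06 in WT.

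The dimmer probe sets of *Tfpi* gave larger differences. By 1438530_at the gene was at 1.19 in *G9a*-KO and -0.87 in WT, and by 1452432_at at 0.83 in *G9a*-KO and -1.78 in WT. The 4 probe sets thus agreed in direction, with differences of 1.73, 1.69, 2.06 and 2.62. The sources used here do not say which *Tfpi* transcripts each of them reads.

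The 2 receptors of the protein C pathway were not higher past 1.3-fold. *Thbd*, which is used as a marker of parietal endoderm, was at -1.30 in *G9a*-KO and -1.58 in WT (1448529_at), and 234 of the other genes in its level group of 907 had a higher difference. *Procr* was at -1.03 in *G9a*-KO and -0.27 in WT, a difference of -0.76. Its single probe set (1420664_s_at) carries the ending of probe sets that can bind several transcripts. In its level group of 910 genes, 114 had a lower difference.

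Both plasminogen activators stayed within 1.3-fold, whereas the urokinase receptor was higher. *Plaur* was at 0.87 in *G9a*-KO and -0.50 in WT by 1452521_a_at, a difference of 1.37. *Plat*, the activator typical of parietal endoderm, was at -1.43 in *G9a*-KO and -1.59 in WT by the brighter probe set (1415806_at). Its other probe set (1458553_at) was at -3.01 in *G9a*-KO and -2.87 in WT, dimmer than the median probe set of either array, and ran the other way. *Plau* lay below the median by both probe sets, at -3.18 in *G9a*-KO and -3.20 in WT (1422138_at) and at -3.38 in *G9a*-KO and -3.41 in WT (1422139_at). A difference in *Plau* was therefore not detectable at this signal, and its sign turned under other scalings of the arrays (lowest value -0.08).

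*Pth1r* had 1 probe set (1417092_at), at 1.01 in *G9a*-KO and -1.21 in WT, a difference of 2.22. It ranked 172 of 18194 genes from the top, next after *F3* (119) and before *Tfpi* (283) and *Plaur* (478) among the members. In its level group, 16 of the other 909 genes had a higher difference.

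**Figure D2:**
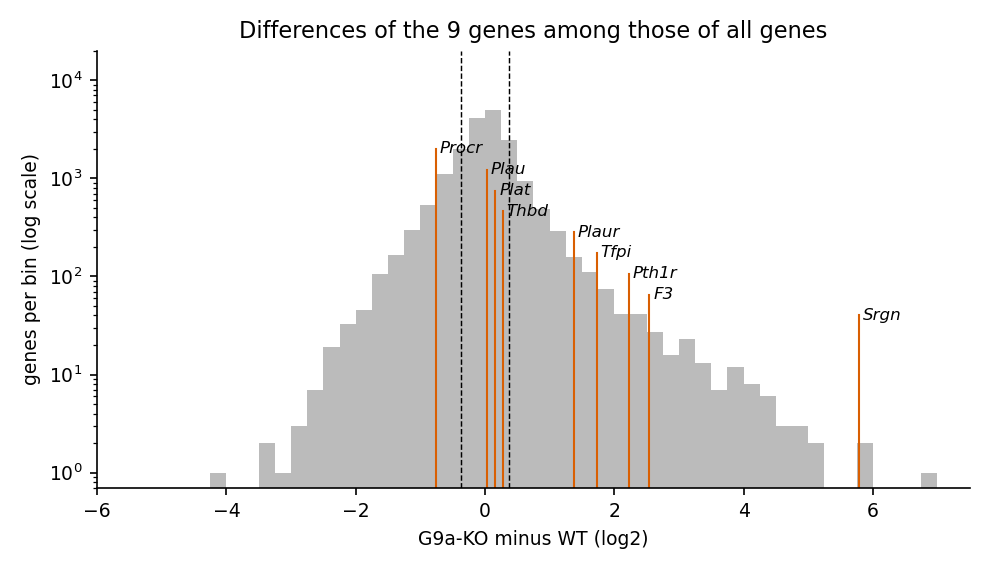
Number of genes per bin of the difference between G9a-KO and WT (log2, horizontal axis; gene number on a log scale, vertical axis) for all 18194 genes in grey, with orange lines at the 9 genes (the height of a line has no meaning) and dashed lines at 1.3-fold. *Srgn* at 5.79 lies at the far right, *Plaur*, *Tfpi*, *Pth1r* and *F3* lie between 1.37 and 2.54, and *Procr* at -0.76 is left of the lower dashed line.

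The sequence before the start of each gene was read to see what the members share, since 5 of them were higher on the same array. RefSeq promoter windows (GRCm38.p6) were at hand for 6 of the 9 genes, with 10 starts in all, and the 250 bases before each start were searched on both strands. AP-1 sites (TGANTCA) were present in 3 of these 10 windows, those of *F3*, *Plaur* and *Procr*, beside 6.75% of all 32851 windows of that length. The core of the cAMP response element (TGACG) was present in 3 (17.8% of all), GATAA, the letters that GATA factors bind, in 2 (22.6%), TATAAA in 2 (12.4%), and the E-box CACGTG, which MAX binds, in 0 (6.02%). The windows with AP-1 letters are shown, along with the first start of *Srgn*, the member with the largest difference, which holds the letters TATAAA. Matches are in capitals, and in these windows they do not overlap. They lie at chr3:121723287-121723536 (*F3*, plus strand), chr7:24462233-24462482 (*Plaur*, plus strand), chr2:155750967-155751216 (*Procr*, plus strand) and chr10:62527446-62527695 (*Srgn*, minus strand).
F3: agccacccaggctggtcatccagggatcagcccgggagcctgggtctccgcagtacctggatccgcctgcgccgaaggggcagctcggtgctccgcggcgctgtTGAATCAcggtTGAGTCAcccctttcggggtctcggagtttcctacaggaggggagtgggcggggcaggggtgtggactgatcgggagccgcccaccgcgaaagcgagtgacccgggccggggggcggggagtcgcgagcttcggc
Plaur: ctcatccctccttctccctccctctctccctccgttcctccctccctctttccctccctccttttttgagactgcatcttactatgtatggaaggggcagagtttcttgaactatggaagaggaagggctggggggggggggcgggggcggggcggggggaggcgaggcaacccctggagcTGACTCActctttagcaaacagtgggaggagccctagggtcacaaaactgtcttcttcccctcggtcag
Procr: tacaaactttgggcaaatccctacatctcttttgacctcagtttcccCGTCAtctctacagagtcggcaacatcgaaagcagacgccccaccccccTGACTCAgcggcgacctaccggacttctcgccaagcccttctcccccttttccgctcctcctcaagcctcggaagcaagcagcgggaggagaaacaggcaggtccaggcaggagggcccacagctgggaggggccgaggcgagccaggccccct
Srgn: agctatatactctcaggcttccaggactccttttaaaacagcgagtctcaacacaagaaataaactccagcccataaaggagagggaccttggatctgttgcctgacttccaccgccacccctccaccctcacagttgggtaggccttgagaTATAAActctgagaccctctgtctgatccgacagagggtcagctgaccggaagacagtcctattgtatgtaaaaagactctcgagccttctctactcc
*F3* carries 2 AP-1 matches, *Plaur* 1 and *Procr* 1, the last beside a match to TGACG read on the other strand. AP-1 letters thus stood before genes that were higher (*F3* and *Plaur*) and before the gene that was lower (*Procr*). A match describes the letters and not a bound site.

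Most other genes listed as markers of parietal endoderm were also higher in *G9a*-KO. Of 21 further markers, all measured, 17 were higher past 1.3-fold, 16 of them past 2-fold, and 0 were lower, with a median difference of 2.47, or 1.75 when all probe sets of a gene were averaged. Over all genes, 17.4% were higher and 17.2% lower past 1.3-fold, and 4.61% were higher past 2-fold. The basement membrane genes *Col4a1* (31.0-fold, 4.10 in *G9a*-KO and -0.86 in WT), *Col4a2* (29.2-fold) and *Lama1* (19.2-fold) and the endocytic adaptor *Dab2* (20.7-fold, or 0.70 on the log2 scale by the lowest of its 4 probe sets) led. *Col4a2* and *Dab2* lay below the median in WT, so their folds are not exact. *Lamb1* was at 4.70 in *G9a*-KO and 0.54 in WT, with differences of 0.79 to 4.44 over its 4 probe sets. *Lamc1* differed by 2.24, or 1.58 by its other probe set. The 4 markers within 1.3-fold were *Hspg2* (0.01, with 0.93 by its other probe set), *Vim* (-0.05), *Fst* (-0.19) and *Stra6* (0.16). Several listed genes, such as *Gata4*, *Gata6*, *Sox17*, *Dab2*, *Krt8* and *Krt18*, are not particular to parietal endoderm. The count and median therefore do not separate this layer from other endoderm. The list was chosen with earlier results of these arrays known and is not independent evidence. In a bulk sample, more cells of a type and more RNA per cell cannot be told apart.

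Visceral endoderm, the sister layer, was also represented. Of 21 markers, 19 were measured, 11 were higher and 1 was lower (median 1.13), beside 17.4% higher and 17.2% lower of all genes. The endocytic receptor genes *Cubn* (5.82 on the log2 scale) and *Lrp2* (3.70, but 0.00204 by the lowest of its 3 probe sets), the protease inhibitor gene *Spink1* (3.38) and the apolipoprotein gene *Apom* (2.97) differed most. In WT, *Cubn* (-3.04), *Lrp2* (-2.80) and *Spink1* (-2.37) lay below the median, so their differences are not exact. The defining secreted proteins were dimmer. *Ttr* was at -0.57 in *G9a*-KO and -1.39 in WT, *Afp* at -2.08 in *G9a*-KO and -3.27 in WT, and *Apob* at -2.32 in *G9a*-KO and -2.15 in WT. Over all their probe sets the differences ran from 0.82 to 3.24 for *Ttr* (4 probe sets) and from 0.06 to 3.85 for *Afp* (5 probe sets). Summed on the linear scale in units of the 75th percentile, the parietal list gave 159 in *G9a*-KO and 36.6 in WT and the visceral list 44.0 in *G9a*-KO and 13.5 in WT. Genes bright on both arrays weigh on these sums, such as *Cdh1* in the visceral list (4.44 in *G9a*-KO and 3.01 in WT). *Vim* does so in the parietal list (3.84 in *G9a*-KO and 3.88 in WT), so the sums do not compare the layers. Not all members ran with these lists, since *Thbd* and *Plat*, which mark the same layer, stayed within 1.3-fold.

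**Figure D3:**
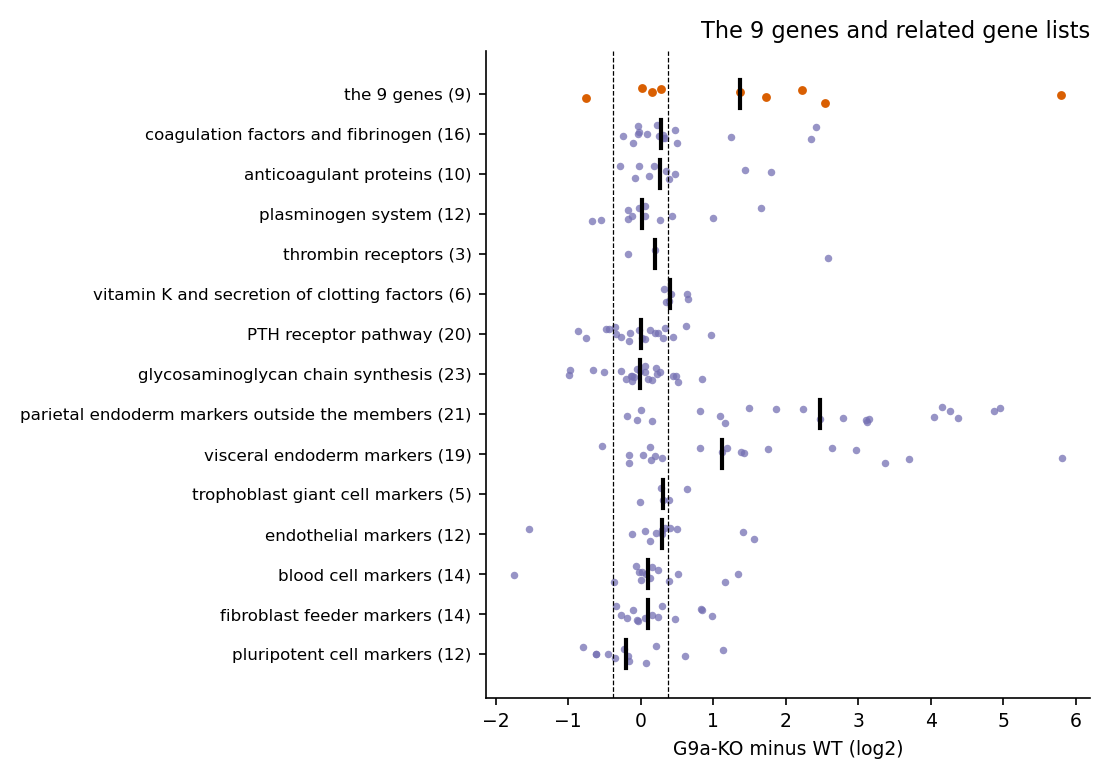
Difference between G9a-KO and WT (log2, horizontal axis) for the 9 genes (orange) and the measured genes of 14 related lists (purple, number in brackets), 1 point per gene, with a black bar at the median and dashed lines at 1.3-fold. The bars of the 9 genes (1.37), the other parietal endoderm markers (2.47) and the visceral endoderm markers (1.13) stand apart to the right, and the bars of most other lists lie between the dashed lines. The parietal list holds genes that are not particular to that layer, so the bars do not compare the layers.

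Several of the 9 genes are also expressed by vessel wall, blood cells or fibroblasts, so markers of these cells were read on the same arrays. Of 12 endothelial markers, 4 were higher and 1 lower (median 0.30). Under all 4 other scalings of the arrays it was 3 and 1, with *Tie1* (0.40 as reported) short of the threshold. *Pecam1* was at 0.65 in *G9a*-KO and -0.76 in WT and *Tek* at -0.40 in *G9a*-KO and -1.96 in WT, whereas *Sox18* was at -2.54 in *G9a*-KO and -0.99 in WT. *Kdr* differed by 0.22, and *Cdh5*, the endothelial cadherin, was dimmer than the median probe set in both samples (-3.35 in *G9a*-KO and -3.68 in WT). The list summed to 4.92 in *G9a*-KO and 3.38 in WT.

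Blood cell markers gave 4 higher and 1 lower of 14, beside 17.4% higher and 17.2% lower of all genes. Their median was 0.10 and their sums 5.09 in *G9a*-KO and 5.44 in WT. The sums lean on *Coro1a* (-1.06 in *G9a*-KO and 0.69 in WT), so their order does not describe the list. Under all 4 other scalings of the arrays the list gave 3 higher and 2 lower, with *Cd34* (-0.37 as reported) also lower. *Ptprc* (1.34 at a dim signal, with 0.20 by its other probe set), *Runx1* (1.17), *Cd68* (0.51) and *Csf1r* (0.40) were higher and *Coro1a* (-1.75) lower. A second probe set of *Coro1a* was at -2.22 in *G9a*-KO and -0.22 in WT, and the third, at a dim signal, differed by 0.23. The lowest of 6 probe sets of *Runx1* gave 0.10, and the other probe sets of *Csf1r* were 1.06-fold and 2.46-fold higher. By its brightest probe set *Csf1r* fell short of 1.3-fold under all 4 other scalings of the arrays (lowest 0.29). The defining markers *Ptprc* (-2.64 in *G9a*-KO and -3.98 in WT) and *Tyrobp* (-2.48 on both arrays) were dimmer than the median probe set, while *Spi1* was at -1.46 in *G9a*-KO and -1.59 in WT. Of 15 fibroblast markers 14 were measured, with 4 higher, 0 lower, a median of 0.11 and sums of 3.53 in *G9a*-KO and 2.84 in WT. *Loxl1* (-0.34) was lower past 1.3-fold under all 4 other scalings (lowest -0.44). *Mmp2* (0.84), *Col1a2* (0.83) and *Twist1* (0.48, or 0.38 and just short of the threshold with median centring) were higher, though the other probe sets of *Col1a2*, both dim, gave -0.23 and 0.14. The fibroblast markers that were above the median on at least 1 array, 6 in number, had a median of 0.39, and *Col1a1* and *Col3a1* lay below the median on both arrays. Of 9 genes listed for trophoblast giant cells 5 were measured, with 2 higher, among them *Hand1* (0.40, but short of the threshold under all 4 other scalings, lowest 0.29), and 0 lower (median 0.31, sums 1.63 in *G9a*-KO and 1.28 in WT). *Prl3d1*, *Prl2c2* and *Prl3b1*, which head that list, were not measured. *Ascl2* and *Tpbpa*, which were measured, are not particular to giant cells, so the list does not read out that cell type. The part of *Pecam1*, *Tek*, *Runx1* and the other single markers in the values of the 9 genes was not tested.

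ESC identity of both samples was read from 12 pluripotency markers, all above the median on both arrays, with sums of 266 in *G9a*-KO and 269.9 in WT. *Dppa5a*, the brightest of them (6.59 in *G9a*-KO and 5.98 in WT), weighs most on these sums. It was among the higher genes, so the near-equal sums do not mean that each marker was unchanged. *Pou5f1* was at 4.45 in *G9a*-KO and 4.91 in WT, *Nanog* at 4.31 in *G9a*-KO and 4.10 in WT and *Sox2* at 4.56 in *G9a*-KO and 4.71 in WT. Of the list, 2 genes were higher (*Tfcp2l1*, 1.14, with 0.12 by the lowest of 3 probe sets, and *Dppa5a*, 0.61) and 4 lower. Over all genes, 17.4% were higher and 17.2% lower. The lower markers were *Zfp42* (-0.79), *Sall4* (-0.62), *Utf1* (-0.61) and *Pou5f1* (-0.46), and the list median was -0.20. With median centring 5 of the list were lower, beside 22.3% of all genes.

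The partners of the 9 genes in clotting and fibrinolysis were given whatever their values, and 11 of 15 were measured. The other 4 were not analysed here. Factor VII and factor X, which act directly with tissue factor, were dim, with *F7* at -2.85 in *G9a*-KO and -3.11 in WT and *F10* differing by -0.11. The other probe sets of *F10*, dimmer still, differed by 0.40 (1.32-fold higher) and by -0.18. Thus *F3* was higher by 2.54 while the transcripts of the factors it works with lay below the median on both arrays. *Proc*, the zymogen that thrombomodulin and *Procr* serve, was at -2.47 in *G9a*-KO and -2.65 in WT. *Pros1*, which encodes the protein C cofactor protein S, was at 1.62 in *G9a*-KO and -0.18 in WT (3.49-fold higher).

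The thrombin receptor *F2r* was among the largest differences of the clotting genes. It was at 4.32 in *G9a*-KO and 1.73 in WT (6.01-fold higher), and its second probe set gave 6.28-fold, though both endings are of the kind that can bind several transcripts. It was the 1 gene of 3 measured thrombin receptors past 1.3-fold (median 0.20), beside 17.4% higher and 17.2% lower of all genes. Prothrombin itself, *F2*, was at 0.28 in *G9a*-KO and -0.97 in WT (2.37-fold higher).

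Of 16 measured clotting factors and fibrinogen chains, 5 were higher and none lower (median 0.28), beside 17.4% higher and 17.2% lower of all genes. The fibrinogen chains *Fgg* (-0.70 in *G9a*-KO and -3.13 in WT) and *Fgb* (-0.92 in *G9a*-KO and -3.28 in WT) led, with WT values below the median, whereas *Fga* lay below it on both arrays and differed by 0.31. Just 3 of the 16 were above the median in *G9a*-KO, so most of this list was not readable. These 3, *F2*, *Fgb* and *Fgg*, had a median of 2.35, but *Fgb* and *Fgg* passed that cut through the *G9a*-KO array alone. A high median is therefore built into the choice. Of 10 anticoagulant proteins, 4 were higher and 0 lower (median 0.26), or 2 and 1 with median centring, among them *Pros1* and *Anxa5* (1.44), whose product covers exposed phosphatidylserine. *Tfpi2*, a relative of *Tfpi*, was at -4.10 in *G9a*-KO and -4.49 in WT.

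The list for the plasminogen system outside the members was mixed, with 3 of 12 measured genes higher, 2 lower and a median of 0.02. Over all genes, 17.4% were higher and 17.2% lower. *Adam15* (0.43) was among the higher ones, but fell short with no shift (0.37) and with median centring (0.33), which left 2 higher and 2 lower. *S100a10* (3.78 in *G9a*-KO and 2.11 in WT) and *Anxa2* (4.25 in *G9a*-KO and 3.26 in WT), whose products form a membrane complex that binds plasminogen and the tissue-type activator, were 3.17-fold and 1.99-fold higher. The lowest of their probe sets, 3 for each gene, gave 0.55 for *S100a10* and 0.26 for *Anxa2*. The plasminogen receptor *Plgrkt* was 1.59-fold lower, and *Mrc2*, which encodes a partner of the urokinase receptor that takes up collagen, was 1.46-fold lower. *Plg* itself was at -2.05 in *G9a*-KO and -2.32 in WT, and *Vtn*, a matrix ligand of the urokinase receptor, was at -3.20 in *G9a*-KO and -3.08 in WT.

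The pathway list of *Pth1r* holds ligands, the other receptor of the family and signalling genes, and its 20 measured genes had a median of -0.000412. Of them 3 were higher and 4 lower, or 2 and 6 with the arrays centred on their medians. The G protein subunit *Gna11* (0.97, with 0.06 by its other probe set) and the protein kinase A subunit *Prkar1a* (0.62, with 0.05 by the lowest of 3 probe sets) were higher, and the receptor adaptor *Arrb1* (-0.86) and the adenylyl cyclase *Adcy6* (-0.75) were lower. *Pth1r*, at 2.22, differed by more than each measured gene of its pathway list, and by more than most of all genes (rank 172 of 18194).

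The 9 genes lie on 7 chromosomes, with *Tfpi*, *Thbd* and *Procr* on chromosome 2. In the order of the RefSeq gene table, the nearest measured gene on either side was read for each. Of these 18 neighbours, 3 were higher and 2 lower past 1.3-fold, with a median of 0.02, beside 17.4% higher and 17.2% lower of all genes. Around *Srgn*, *Vps26a* differed by -0.20 and *Kifbp* by -0.59. Around *F3*, *A730020M07Rik* differed by -0.02 and *Abcd3* by 0.15, and around *Tfpi*, *Calcrl* differed by -0.08 and *Ctnnd1* by 0.34. *Pth1r* had *Myl3* (0.82) on one side and *Ccdc12* (-0.37) on the other, and *Plaur* had *Cadm4* (0.77) and *Irgc1* (0.06). *Procr* lay between *Edem2* (0.70) and *Mmp24* (-0.02), *Plat* between *Ikbkb* (-2.02) and *Ap3m2* (0.26), *Thbd* between *Sstr4* and *Cd93* (both -0.04) and *Plau* between *Camk2g* (0.06) and *Vcl* (0.17). For each of the 5 higher members, both neighbours differed by less than the member. These members rank high among all genes, so most genes placed beside them would differ by less, and nothing about the loci follows.

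**Figure D4:**
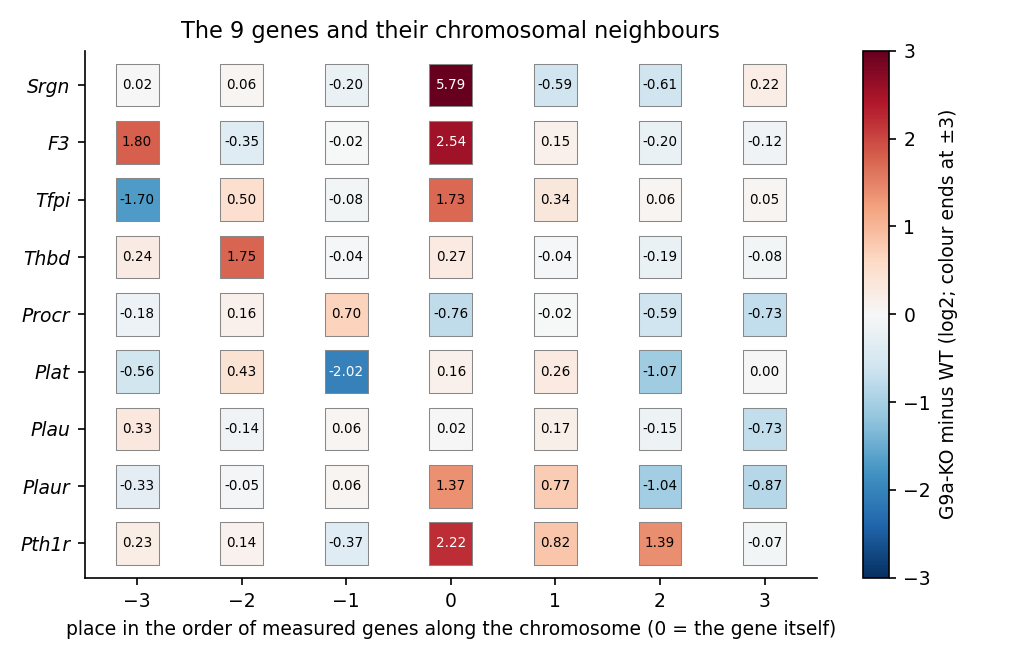
Difference between G9a-KO and WT (log2, colour and printed value, colour scale ending at 3 in either direction) for each of the 9 genes (place 0) and the 3 nearest measured genes on either side in the order along the chromosome (horizontal axis), 1 row per gene. The column at place 0 holds the highest value of its row for *Srgn*, *F3*, *Tfpi*, *Plaur* and *Pth1r*, which were also high among all genes. Of the 54 neighbours 8 were higher and 11 lower past 1.3-fold, beside 17.4% higher and 17.2% lower of all genes.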

How the data were processed

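Biotin-labelled cRNA from 200 ng of total RNA of each sample was read on an Affymetrix GeneChip for mouse genes, which probes the 3' ends of transcripts. The authors deposited log2 values from 1.82 to 14.3, and the submitters' processing notes name RMA and R 3.2.1 for them. Which package ran RMA is unknown here. RMA subtracts background, forces the arrays onto 1 distribution and summarises each probe set, so a difference in RNA per cell cannot be seen. With 2 arrays, 2347 probe sets had the same deposited value on both, and their difference of 0.06 is that of the percentiles. From each array its 75th percentile (7.31 in *G9a*-KO and 7.37 in WT) was subtracted, as the methods of the study state, with Python 3.11.15 and pandas 2.3.3. Gene names come from GEO's platform annotation. Of the 45101 probe sets, 34958 had 1 symbol, 932 several and 9211 none here, and 34754 IDs matched RefSeq (GRCm38.p6). A gene is represented by its brightest probe set. The thresholds were 1.3-fold and 2-fold. Named were the members, fixed partners, *Ehmt2*, nearest neighbours, the first 3 genes of each cell type list where measured, and up to 4 genes per list with the largest absolute differences past 1.3-fold and above the median on at least 1 array. Other list genes, such as *Fga*, were chosen after their values were seen. The members and lists were chosen with earlier results of these data known. The steps were tested on simulated data. The 8 alternatives changed the scaling, the filter on dim probe sets, the probe set types and the rule for genes with several probe sets.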

Additional observations from a re-analysis of the deposited data

How the results depend on the processing

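No paired analysis was possible because each group holds 1 array. The 5 members above 1.3-fold stayed above 2-fold under each of the 8 alternatives that measured them. The differences ran from 5.69 to 5.81 for *Srgn*, 2.44 to 2.54 for *F3*, 2.12 to 2.23 for *Pth1r*, 1.62 to 2.62 for *Tfpi* and 1.27 to 1.39 for *Plaur*, and from -0.86 to -0.76 for *Procr*. Without the probe sets ending in _s_at, _x_at or _a_at, *Procr* and *Plaur* were not measured, which left 4 higher members, 0 lower ones and a member median of 1.73. With probe sets above the median on at least 1 array only, *Plau* dropped out and the median of the members was 1.55. A probe set can pass that filter through the array where it is high. Under it, 6 of the 14 lists had a median past 1.3-fold, against 3 as reported. That number was 2 with no shift and with median centring, where the vitamin K list was lost, 4 with the most different probe set, and 3 under the other alternatives. The mean over probe sets gave 2.02 for *Tfpi* and 0.00735 for *Plat*, and taking the most different probe set gave 2.62 for *Tfpi*. Over all genes, 685 genes were lower past 2-fold as reported, 435 with the mean over probe sets, and between 604 and 944 under the other alternatives. The medians of 5 lists changed sign under at least 1 alternative, those of the anticoagulant, plasminogen, PTH receptor, glycosaminoglycan and blood cell lists. Signal near background limits *Plau*, *F7*, *F10*, *Proc* and most clotting factors.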

Other observations

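Serglycin carries long glycosaminoglycan chains, and the genes that build such chains had a median near 0. Of 23 measured members of 25 listed, 4 were higher, 4 lower and 15 within 1.3-fold in *G9a*-KO, with a median of -0.00727. These counts are near the shares of all genes, 17.4% higher and 17.2% lower. The heparan sulphate genes *Hs6st1* (-0.40 in *G9a*-KO and 0.59 in WT, 1.98-fold lower) and *Extl3* (-0.10 in *G9a*-KO and 0.87 in WT, 1.96-fold lower) differed most, and the linker galactosyltransferase gene *B3galt6* was 1.57-fold lower. The chondroitin sulphotransferase gene *Chst13* was 1.43-fold higher. The other probe set of *Extl3* gave -0.23, and those of *B3galt6* gave -0.11 and -1.02.

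Genes of vitamin K use and of the secretion of clotting factors were higher by small amounts. Of 6, 4 were higher past 1.3-fold and 0 lower, with a median of 0.41, beside 17.4% higher and 17.2% lower of all genes. *Vkorc1* (3.16 in *G9a*-KO and 2.52 in WT) and *Vkorc1l1* (2.22 in *G9a*-KO and 1.57 in WT, with 0.15 by its other probe set), which recycle vitamin K, were 1.56-fold and 1.57-fold higher. *Mcfd2* (0.43) and *Lman1* (0.39, with probe sets from 0.15 to 1.51), which form the cargo receptor for factors V and VIII, were just past the threshold, and *Ggcx*, the carboxylase, was dim on both arrays. With the arrays centred on their medians, *Lman1* (0.29) and *Mcfd2* (0.32) were no longer past the threshold, which left 2 of 6 genes and a list median of 0.31. With no shift of the arrays it was also 2 of 6, with a median of 0.35.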
